A study of Mus musculus with 12 samples.

Results

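The 10 genes described here encode receptors that couple to inhibitory Gi/o proteins and respond to opioids, cannabinoids, noradrenaline, neuropeptide Y or galanin. They are Oprm1, Oprd1, Oprk1 and Oprl1 (the mu, delta, kappa and nociceptin opioid receptors), Cnr1 (the CB1 cannabinoid receptor), Adra2a and Adra2c (alpha2-adrenergic receptors), Npy1r and Npy2r (Y1 and Y2 receptors of neuropeptide Y) and Galr1 (a galanin receptor). They were chosen by gene name from the 44345 gene names of the count table. All 10 passed the filter on low counts, as did 16238 genes in all.

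When one of these receptors binds its ligand, the Gi/o protein inhibits adenylyl cyclase, and its beta-gamma subunits open inwardly rectifying potassium channels and close voltage-gated calcium channels. In primary sensory neurons of the dorsal root ganglia (DRG), this lowers excitability and the release of transmitter from central terminals, and opioids and alpha2-adrenergic agonists act in part there as analgesics. Receptors are made in the cell body and carried along the axon in both directions, so that an RNA level in the ganglion is not a measure of receptor at the terminals.

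RNA was measured in whole L4-L6 sciatic DRG of C57BL/6 mice aged 5 to 8 weeks that lived for 10 days in standard housing (SH) or in an enriched environment (EE) and then had sciatic nerve axotomy (SNA), a complete transection, or a sham operation that only exposed the nerve. This made 4 groups, named SH Sham and SH SNA in standard housing and EE Sham and EE + SNA in enrichment, with 3 samples each, and a sample held the ganglia of both sides of 2 mice, taken 24 h after surgery. The study's methods do not say whether the nerve was cut on a single side or on both, so SNA samples may hold uninjured ganglia too. No group carried a transgene or a deletion. According to the study's methods the opioid agonist buprenorphine and the anti-inflammatory drug carprofen were given around every operation, so the sham groups carried them too, and no group was free of an opioid drug. The labels give no date of library preparation or sequencing, so a batch, if there was one, cannot be told apart from housing or surgery. The study's text refers to EE Sham as data described earlier, and whether those libraries were made and sequenced with the others is not given in the sources used here. In every comparison that uses EE Sham (housing in sham mice, SNA in EE, the interaction and the joint fit), such a difference cannot be told apart from the group itself.

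Between 11343579 and 22871460 reads were counted on genes in a sample (median 12769394), of which the 10 receptors took 0.0163% to 0.0201%. Atf3, a transcription factor that injured sensory neurons induce, checked the labels: it was higher after SNA in every sample, by a log2 fold change of 1.92 ± 0.082 (SE, n = 6 against 6). Markers of sensory neurons and glia moved with SNA as well, and the counts of called genes in this joint fit stand beside the 22.4% called over all genes. Lower were 5 of 10 listed sensory neuron genes, 3 of 6 of non-peptidergic nociceptors and 2 of 6 of large myelinated sensory neurons (1 was higher). Higher were 4 of 6 Schwann cell genes, 3 of 6 of satellite glia, 2 of 6 of macrophages, 2 of 6 of fibroblasts, 1 of 6 of endothelium, 1 of 5 tested of neutrophils, 1 of 3 tested of red blood cells and 1 of 6 of peptidergic nociceptors. Levels are given as CPM, a count scaled to the library's total by the TMM method. The summed sensory neuron genes lay between 9910 and 10197 CPM in SH Sham, 9520 and 9952 in EE Sham, 9076 and 9773 in SH SNA, and 9306 and 9485 in EE + SNA. No sensory neuron marker of the list was at 0. Skeletal muscle genes gave 0 calls, though their sum was 824 CPM in SH SNA replicate 2. It was 30.6 and 35.3 CPM in the other SH SNA samples and between 2.58 and 148 CPM in the other groups. At an unadjusted p of 0.05 in edgeR's joint fit, 5 of the 6 muscle genes were higher, beside 34.7% of all genes called. The part of these shifts in the receptor results was not tested. In whole ganglia, fewer cells of a type and less RNA per cell cannot be told apart.

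After SNA, 7 of the 10 receptors changed when both housings were fitted together. Oprl1, Oprd1, Adra2c, Oprk1 and Cnr1 fell, to between 0.488 and 0.696 of the sham level, and Npy1r and Adra2a rose to 1.59 and 1.47 times it. Oprm1, Npy2r and Galr1 did not pass the test. These calls come from edgeR's quasi-likelihood test with a Benjamini-Hochberg adjusted p of 0.05 over all genes tested, on all 12 samples with housing as a term, and over all genes it called 22.4%. At the unadjusted p of 0.05 that the study used, 8 receptors were called, Galr1 being added among the lower ones, against 34.7% of all genes. The median log2 fold change was -0.51 over the 10 receptors and 0.0071 over all genes tested. In 5 receptors the 6 SNA samples and the 6 sham samples did not overlap, Npy1r above and Oprl1, Oprd1, Cnr1 and Adra2c below, and the groups did not overlap in 11.1% of all genes.

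**Figure D1:**
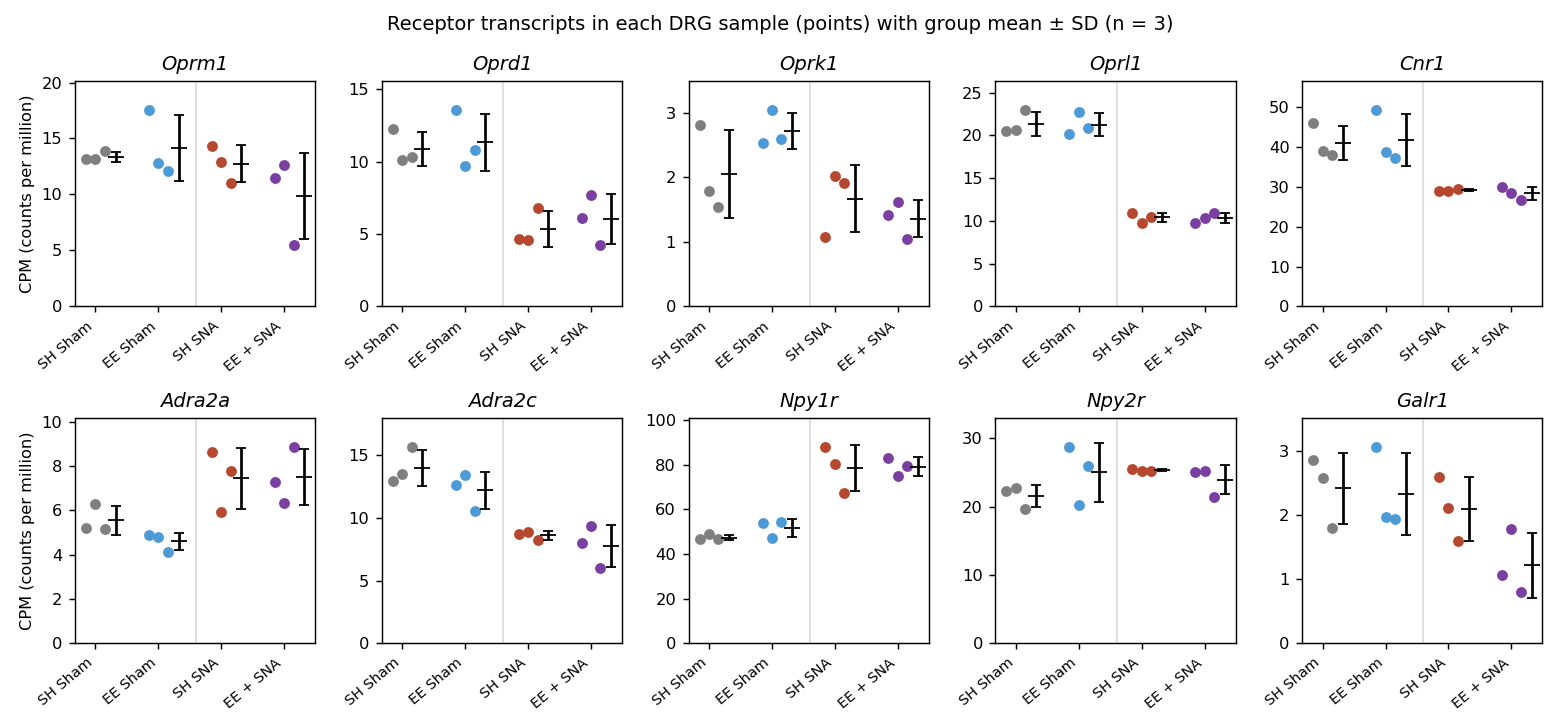
Level of each receptor in CPM in every sample (y axis, linear, starting at 0), with the sham groups to the left of the grey line and the SNA groups to the right. Points are samples and the bar beside them is the mean ± SD (n = 3). Oprl1, Oprd1, Cnr1 and Adra2c lie lower in all SNA samples than in any sham sample, Npy1r lies higher, and 1 EE + SNA sample is low for Oprm1 at 5.48 CPM.

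Upstream sequences of 3 receptors that fell are shown first, because they span the range of base composition among the matched receptors that fell, and then the 1 motif match of Npy1r, which rose. RefSeq promoter windows on GRCm38.p6, 250 bases before to 50 bases after a start site, were matched for 8 of the 10 receptors (14 windows). The 250 upstream bases of Oprd1 at chr4:132144487-132144736 (minus strand), of Cnr1 at its first start site at chr4:33924014-33924263 (plus strand) and of Oprl1 at its first start site at chr2:181714766-181715015 (plus strand) read as follows, 5′ to 3′, with capitals for a GC box (GGGCGG on either strand).
Oprd1: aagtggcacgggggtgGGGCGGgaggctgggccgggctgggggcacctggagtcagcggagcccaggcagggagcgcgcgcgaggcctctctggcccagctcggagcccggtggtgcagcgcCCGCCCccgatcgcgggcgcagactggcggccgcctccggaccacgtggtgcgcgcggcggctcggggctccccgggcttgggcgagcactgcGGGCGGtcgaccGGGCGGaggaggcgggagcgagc
Cnr1: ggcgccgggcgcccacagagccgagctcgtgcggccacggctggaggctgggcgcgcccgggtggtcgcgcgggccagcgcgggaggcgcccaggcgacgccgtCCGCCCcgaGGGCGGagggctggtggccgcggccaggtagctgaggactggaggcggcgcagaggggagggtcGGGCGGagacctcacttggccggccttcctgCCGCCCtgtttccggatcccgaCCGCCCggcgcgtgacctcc
Oprl1: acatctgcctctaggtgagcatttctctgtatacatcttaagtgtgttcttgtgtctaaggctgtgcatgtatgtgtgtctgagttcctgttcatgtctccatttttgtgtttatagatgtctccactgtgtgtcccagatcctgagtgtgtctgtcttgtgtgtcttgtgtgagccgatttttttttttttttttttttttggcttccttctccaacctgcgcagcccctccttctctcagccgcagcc
The Oprd1 and Cnr1 windows were 80% and 79.2% G or C and held 4 and 5 GC boxes, those of Oprd1 starting 234, 128, 35 and 23 bases before the start site. The Oprl1 window was 44.4% G or C and held none, below the median of 52.4% over all windows. The other 2 Cnr1 windows were 68.8% and 49.2% G or C and held no GC box, and neither did the other 2 of Oprl1. Adra2c, which also fell, and Npy1r, which rose, had windows of 53.6% G or C each, with no GC box in either. Adra2a, which rose too, had a window of 67.6% G or C with 1 GC box. The part of base composition and GC boxes in the direction of change was not tested. A GC box was found in 35.7% of all 32851 windows. Among the 14 windows of the receptors it was found in those of 4 receptors, Oprd1, Cnr1, Adra2a and Npy2r, in 1 window each.
An AP-1 motif (TGANTCA, either strand) was found in 1 of the 14 receptor windows, that of Npy1r, which rose. It starts 231 bases before the RefSeq start site, and the stretch at chr8:66697181-66697207 (plus strand) is shown with the motif in capitals.
Npy1r: gcgccttgctTGAGTCAaggactagtg
That stretch overlaps the annotated start of the gene in GENCODE. Start sites of other receptors differ between RefSeq and GENCODE as well. The upstream bases of Adra2a (chr19:54045009-54045258) lie within the GENCODE gene, and the first upstream stretch of Cnr1 ends before the GENCODE start at 33924593. The base composition and GC boxes given before a start site thus depend on the annotation. An AP-1 motif stands in 7.81% of all windows, a STAT motif (TTCNNNGAA) in 8.3% and a CRE motif (TGACGTCA) in 1.79%. Among the receptors the STAT motif was found in 1, in the third Oprl1 window, and the CRE motif in 0. These matches are of letters only.

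The opioid family has 4 receptor genes, and all were measured. Oprl1 (chromosome 2, 181715016 to 181720985, GRCm38) encodes the nociceptin receptor, which is close to the classical opioid receptors in sequence but does not bind most opioid drugs. Whether the buprenorphine given to every group acted at this or another receptor was not tested. Oprl1 was measured at 20.5, 20.6 and 22.9 CPM in SH Sham and at 20.2, 22.8 and 20.9 CPM in EE Sham. After SNA it stood at 10.9, 9.80 and 10.5 CPM in SH SNA and 9.79, 10.4 and 11.0 CPM in EE + SNA. Every SNA sample was well below every sham sample, and within either surgery the housings overlapped. Its fall had a log2 fold change of -1.03 ± 0.097 (SE) in SH and -1.04 ± 0.10 in EE, with adjusted p of 3.69e-05 and 0.000213 by edgeR.

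Oprd1 (chromosome 4, 132110726 to 132144486) encodes the delta receptor, the main receptor of enkephalins beside the mu receptor. Its levels were 12.3, 10.1 and 10.3 CPM in SH Sham and 13.5, 9.71 and 10.8 CPM in EE Sham. In SH SNA they were 4.66, 4.56 and 6.76 CPM, and in EE + SNA 6.14, 7.70 and 4.27 CPM. The SNA samples lay below all sham samples in both housings. The log2 fold change was -1.03 ± 0.16 (SE) in SH and -0.87 ± 0.20 in EE, with adjusted p of 0.00126 and 0.0269. With 1 sample left out, the call in EE held in 3 of 6 fits, at an adjusted p of 0.0131 to 0.0913 by edgeR.

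Oprk1 (chromosome 1, 5588466 to 5606131), the receptor of dynorphins, had 13 to 48 reads in a sample and was the lowest of the 10 per gene length. It gave 2.82, 1.79 and 1.54 CPM in SH Sham, 2.53, 3.04 and 2.60 CPM in EE Sham, 1.07, 2.03 and 1.91 CPM in SH SNA, and 1.42, 1.61 and 1.05 CPM in EE + SNA. The SH groups overlapped, whereas in EE every SNA sample lay below every sham sample. Its log2 fold change was -0.31 ± 0.31 (SE) in SH, not past the test (adjusted p = 0.579), and -0.97 ± 0.25 in EE (adjusted p = 0.0454). The call in EE was lost when any 1 of the 6 samples was left out, at an adjusted p of 0.0515 to 0.121 by edgeR. Over both housings it was -0.65 ± 0.21 with an adjusted p of 0.0358. This call is the least firm of the 7: leaving out any of 8 of the 12 samples brought the adjusted p to between 0.0558 and 0.0948, the 8 being SH Sham 1, SH SNA 1 and the 6 EE samples.

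Oprm1 (chromosome 10, 6758506 to 7038198) encodes the mu receptor, a target of morphine and buprenorphine. It stood at 13.1, 13.1 and 13.9 CPM in SH Sham, 17.5, 12.8 and 12.1 CPM in EE Sham, 14.3, 12.9 and 11.0 CPM in SH SNA, and 11.5, 12.7 and 5.48 CPM in EE + SNA. Each group overlapped with every other except EE + SNA with SH Sham, and the third EE + SNA sample, with 68 reads, was far below the other two of its group. That sample had 7 of the 10 receptors below its group's mean, and the median deviation over all 10 was -0.24 on the log2 scale. It also differed from the other samples of its group in summed cell markers. Neutrophil genes reached 587 CPM in it against 137 and 127, red blood cell genes 595 against 274 and 175, and Schwann cell genes 11474 against 8688 and 8762. Non-peptidergic nociceptor genes were at 634 CPM against 742 and 803, while the sensory neuron list, at 9314 CPM, lay between its companions. SH SNA replicate 3 was also high in Schwann cell genes (10640 CPM), red blood cell genes (516) and neutrophil genes (257), with Oprm1 at 11.0 CPM. The part of these values in the receptor levels of either sample was not tested. The change with SNA was -0.07 ± 0.11 (SE, log2) in SH and -0.49 ± 0.24 in EE, with 95% intervals from -0.31 to 0.18 and from -1.02 to 0.04. Its count is also the one that could mix with another gene, since 96 of its 8037 annotated exon bases (1.19%) overlap exons of Ipcef1 on the other strand and the strand setting of the counting is not given in the sources used here.

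Of the opioid family, then, Oprl1 and Oprd1 fell in both housings, though the call of Oprd1 in EE held in only 3 of 6 fits with 1 sample left out. Oprk1 fell in EE and in the joint fit, calls that did not hold with most single samples left out, and Oprm1 passed no test.

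Cnr1 (chromosome 4, 33924593 to 33948831), the CB1 receptor, binds the endocannabinoids anandamide and 2-arachidonoylglycerol. It was at 45.9, 39.1 and 37.9 CPM in SH Sham and at 49.2, 38.9 and 37.2 CPM in EE Sham. After SNA it was at 29.0, 29.0 and 29.5 CPM in SH and 30.1, 28.4 and 26.8 CPM in EE. All 6 injured samples lay within a narrow band under the lowest sham sample. The log2 fold change was -0.49 ± 0.085 (SE) in SH and -0.56 ± 0.10 in EE, with adjusted p of 0.00271 and 0.00875.

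The alpha2-adrenergic receptors moved in opposite directions over both housings. Adra2c (chromosome 5, 35278319 to 35281763) was at 12.9, 13.5 and 15.6 CPM in SH Sham, 12.6, 13.4 and 10.6 CPM in EE Sham, 8.72, 8.87 and 8.20 CPM in SH SNA, and 8.01, 9.31 and 5.96 CPM in EE + SNA. It fell with a log2 fold change of -0.70 ± 0.11 (SE) in SH and -0.64 ± 0.16 in EE, with adjusted p of 0.00152 and 0.0484. With 1 sample left out, the call in EE held in 1 of 6 fits, at an adjusted p of 0.0276 to 0.121 by edgeR. The SNA samples stood under all sham samples.

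Adra2a (chromosome 19, 54044151 to 54048982), the alpha2 subtype at which clonidine and dexmedetomidine cause sedation and analgesia, was lower in count, with 51 to 146 reads. It gave 5.22, 6.31 and 5.15 CPM in SH Sham, 4.87, 4.78 and 4.14 CPM in EE Sham, 8.64, 5.91 and 7.80 CPM in SH SNA, and 7.30, 6.35 and 8.86 CPM in EE + SNA. In EE the groups did not overlap, and in SH 1 SNA sample fell within the sham range. The log2 fold change was 0.43 ± 0.16 (SE) in SH, where only the unadjusted p of 0.0202 passed (adjusted p = 0.114), and 0.68 ± 0.17 in EE (adjusted p = 0.0378). With 1 sample left out, the call in EE held in 1 of 6 fits, at an adjusted p of 0.0295 to 0.152 by edgeR. In the joint fit it was 0.55 ± 0.12, with an adjusted p of 0.0025.

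Npy1r (chromosome 8, 66697192 to 66706792) encodes the Y1 receptor, by which neuropeptide Y inhibits neurons of the dorsal horn. Its levels were 46.6, 48.8 and 46.6 CPM in SH Sham and 54.0, 46.9 and 54.2 CPM in EE Sham. In SH SNA they were 87.9, 80.2 and 67.2 CPM, and in EE + SNA 83.1, 74.9 and 79.5 CPM. The lowest injured sample was above the highest sham sample in both housings. The log2 fold change was 0.73 ± 0.086 (SE) in SH and 0.61 ± 0.076 in EE, with adjusted p of 0.000198 and 0.000922.

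Npy2r (chromosome 3, 82538383 to 82548084), the Y2 receptor of neuropeptide Y, is found on the terminals of sensory neurons, where it limits transmitter release. It was at 22.2, 22.7 and 19.7 CPM in SH Sham, 28.7, 20.3 and 26.0 CPM in EE Sham, 25.5, 25.3 and 25.2 CPM in SH SNA, and 25.1, 25.2 and 21.4 CPM in EE + SNA. In SH the SNA samples were all above the sham samples, and in EE they lay within the sham range. The log2 difference was 0.24 ± 0.087 (SE) in SH (unadjusted p = 0.0185, adjusted p = 0.108) and -0.06 ± 0.12 in EE (adjusted p = 0.826).

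Galr1 (chromosome 18, 82392380 to 82406777), a receptor of galanin, had 10 to 49 reads in a sample. It gave 2.87, 2.58 and 1.81 CPM in SH Sham, 3.07, 1.97 and 1.95 CPM in EE Sham, 2.60, 2.11 and 1.59 CPM in SH SNA, and 1.07, 1.78 and 0.806 CPM in EE + SNA. The SH groups overlapped, and the EE + SNA samples lay below the EE Sham samples. The log2 difference was -0.20 ± 0.25 (SE) in SH (adjusted p = 0.678) and -0.84 ± 0.33 in EE, which passed the unadjusted but not the adjusted test of edgeR (unadjusted p = 0.025, adjusted p = 0.171).

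Taken one housing at a time, 5 receptors were called after SNA in SH, Npy1r higher and Oprd1, Oprl1, Cnr1 and Adra2c lower, where 11.2% of all genes were called. In EE it was 7, Npy1r and Adra2a higher and Oprd1, Oprk1, Oprl1, Cnr1 and Adra2c lower, against 4.83% of all genes. At the unadjusted threshold the numbers were 7 in SH and 8 in EE, with 25.2% and 20.6% of all genes. The 3 SNA and 3 sham samples did not overlap in 6 receptors in SH and in 8 in EE, where 29.4% and 25.8% of all genes had no overlap. The 2 comparisons share no samples. The number in EE depended on single samples: leaving out 1 of the 6 left between 3 and 6 receptors called, and Oprl1, Cnr1 and Npy1r were called each time.

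**Figure D2:**
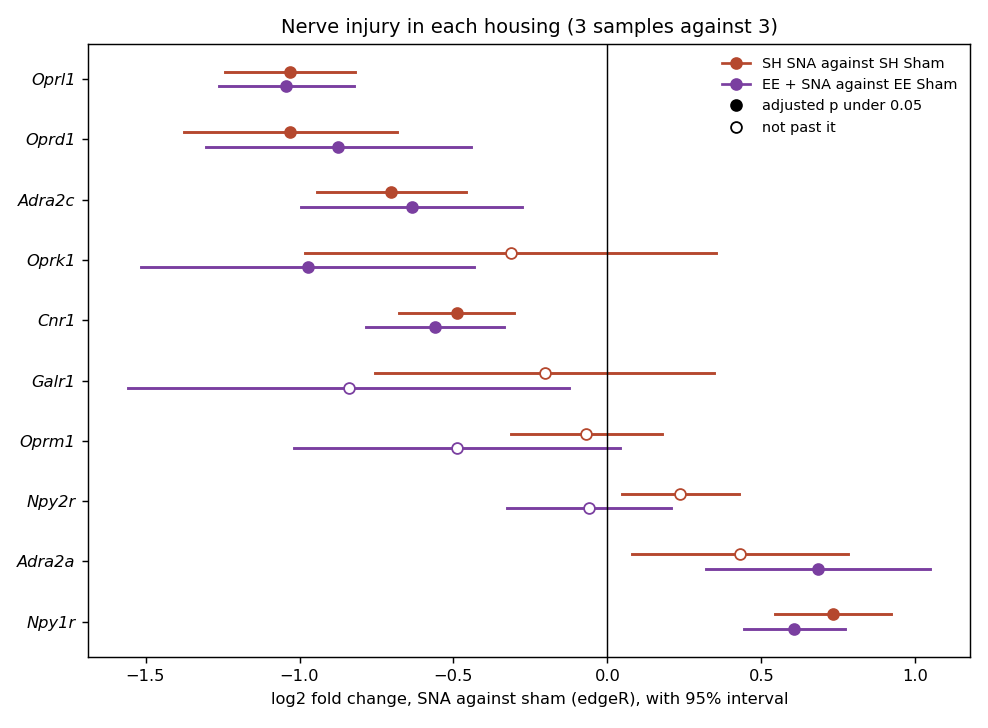
The log2 fold change of each receptor with SNA (x axis) in SH and in EE, with 95% intervals from edgeR's quasi-likelihood fit of 3 samples against 3, ordered by the joint estimate. Filled points passed an adjusted p of 0.05, and the estimates for Oprl1, -1.03 and -1.04, lie nearest each other.

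Housing did not give a call in any receptor. EE Sham against SH Sham called 0 of the 10 at the adjusted and at the unadjusted threshold by edgeR and by DESeq2, where 0.00616% and 2.97% of all genes were called by edgeR. The log2 differences ran from -0.27 (Adra2a, 95% interval -0.61 to 0.07) to 0.39 (Oprk1, -0.14 to 0.93), and that of Oprl1 was -0.0023 with an interval from -0.20 to 0.19. The edgeR and DESeq2 fits given so far for this comparison were unpaired. The correlations between same-numbered samples allowed a replicate block here. With it, edgeR called 29 of all genes at the adjusted threshold, beside 1 without it. Npy2r then passed the unadjusted threshold of edgeR (log2 difference 0.21, unadjusted p = 0.0311, adjusted p = 0.869). Without the second EE Sham sample, Npy2r (0.34), Npy1r (0.19) and Adra2c (-0.28) passed it, with an adjusted p of 0.907 each. EE + SNA against SH SNA also called 0 of the 10 at both thresholds by both tools, with 0% and 4.1% of all genes. Here the differences ran from -0.70 (Galr1, -1.41 to 0.0056) to 0.20 (Oprd1, -0.30 to 0.70), and the adjusted p of Galr1 in edgeR was 0.989. The narrowest intervals were those of Cnr1 (-0.21 to 0.13), Npy2r (-0.27 to 0.11) and Npy1r (-0.18 to 0.20).

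The interaction of housing and surgery asks whether SNA changed a receptor by a different amount after EE than after SH. It called 0 of the 10 at either threshold by edgeR and by DESeq2, and 0% and 2.61% of all genes by edgeR. The smallest unadjusted p was that of Npy2r, 0.0848, for a log2 difference of -0.29 (95% interval -0.62 to 0.04). For the low-count receptors the intervals were wide, from -1.51 to 0.21 in Oprk1 and from -1.53 to 0.28 in Galr1, so a difference of the size seen there was not resolved. Oprk1, Adra2a and Galr1, which passed a threshold in EE that they missed in SH, were thus not shown to respond differently in the 2 housings.

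**Figure D3:**
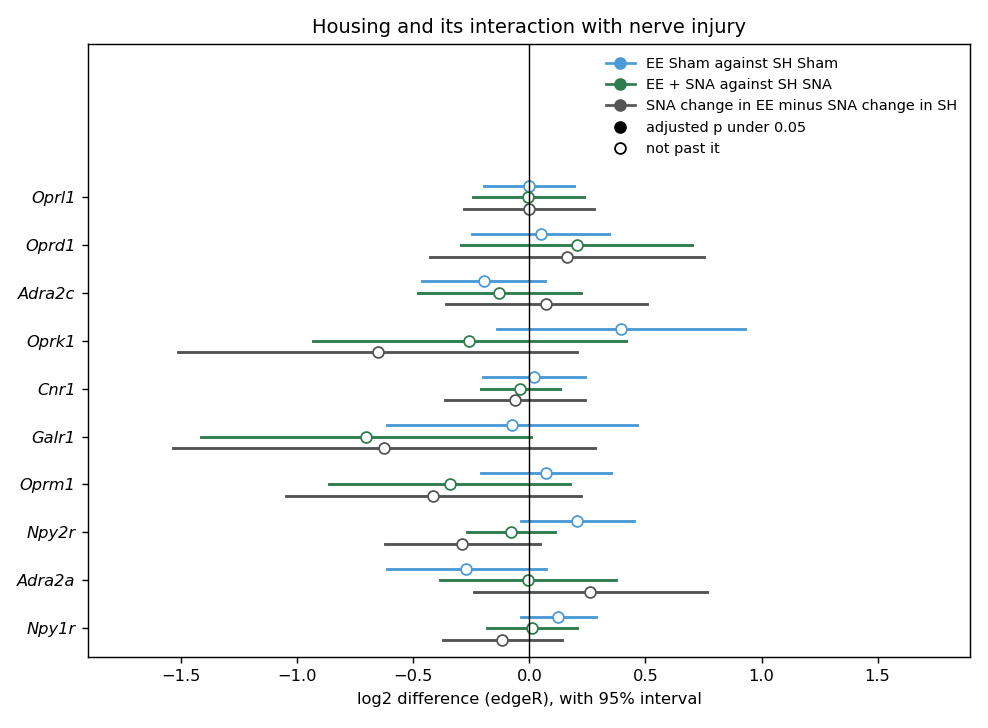
The log2 difference of each receptor (x axis) between EE Sham and SH Sham, between EE + SNA and SH SNA, and the interaction, with 95% intervals from edgeR. All points are open because none passed an adjusted p of 0.05, and the widest intervals are those of Galr1 and Oprk1.

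The combined condition, EE + SNA against SH Sham, called 5 receptors, Npy1r higher and Oprl1, Oprd1, Adra2c and Cnr1 lower, beside 12.5% of all genes. The log2 fold changes were 0.74 ± 0.064 (SE) for Npy1r, -1.04 ± 0.096 for Oprl1, -0.82 ± 0.18 for Oprd1, -0.83 ± 0.15 for Adra2c and -0.53 ± 0.086 for Cnr1. At the unadjusted threshold Adra2a (0.42 ± 0.16) and Galr1 (-0.90 ± 0.31) made 7, beside 27.2% of all genes. This comparison uses the same SH Sham samples as SH SNA against SH Sham and EE Sham against SH Sham. The call of Oprd1 was lost without the first SH Sham sample, at an adjusted p of 0.0596.

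Levels of different receptors were compared per gene length, as the deposited FPKM (fragments per kilobase of gene length, scaled to the library total). The order depends on that length, and Oprm1, for example, has 31 annotated transcripts over 8037 exon bases in GENCODE. In SH Sham the order was Npy1r at 15.8 ± 0.49 FPKM (SD, n = 3), Npy2r at 6.38 ± 0.49, Cnr1 at 6.36 ± 0.64, Oprl1 at 5.91 ± 0.39, Adra2c at 4.39 ± 0.46, Oprd1 at 2.71 ± 0.28, Oprm1 at 1.67 ± 0.058, Adra2a at 1.47 ± 0.18, Galr1 at 0.844 ± 0.19 and Oprk1 at 0.300 ± 0.097. The ranges of Npy2r, Cnr1 and Oprl1 overlapped from one to the next, as did those of Oprm1 and Adra2a, and all other neighbours in the order were apart. EE Sham had the same order, with the same overlap among Npy2r, Cnr1 and Oprl1.

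After SNA the order changed among the lower-ranked receptors. In SH SNA, Npy1r stood at 25.9 ± 3.4 FPKM and Npy2r at 7.44 ± 0.078, clear of Cnr1 at 4.49 ± 0.063, and Oprl1 fell to 2.86 ± 0.17, beside Adra2c at 2.67 ± 0.10. Adra2a, at 1.95 ± 0.37 FPKM, then stood before Oprm1 (1.57 ± 0.21) and Oprd1 (1.32 ± 0.31), and the ranges of these 3 overlapped from one to the next. EE + SNA had a like order, with Npy1r at 26.0 ± 1.1 FPKM and Oprd1 at 1.48 ± 0.44 before Oprm1 at 1.21 ± 0.48.

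The sum over the 10 receptors lay between 45.0 and 50.4 FPKM in the sham samples and between 45.5 and 53.1 FPKM in the SNA samples, so the summed levels overlapped. Npy1r made up 33.4% to 38.4% of that sum in sham samples and 48.8% to 57.0% in SNA samples.

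**Figure D4:**
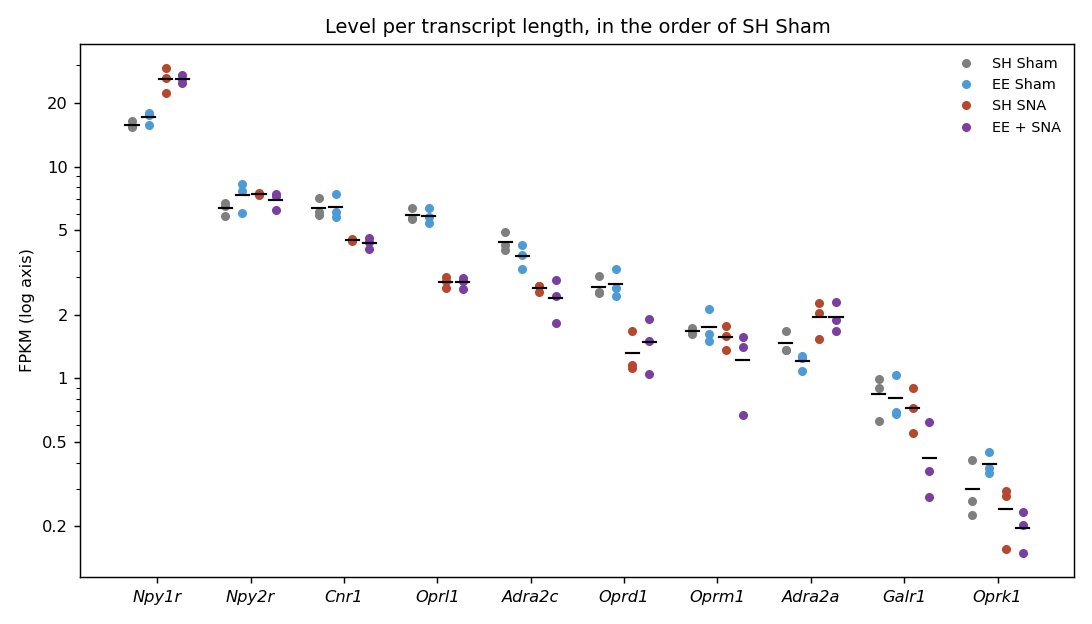
FPKM of the 10 receptors in every sample (y axis, log scale), ordered by the SH Sham mean, with points for samples, colours for groups and a black line for each group mean. Npy1r is highest in all 4 groups, from 15.8 FPKM in SH Sham to 26.0 in EE + SNA, and Oprk1 lowest.

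The genes of the ligands were read from the same samples. Npy, the gene of neuropeptide Y, had 2 to 47 reads in the sham samples and 111 to 196 in the SNA samples, which is 1.52 ± 0.89 CPM (SD, n = 3) in SH Sham, 1.59 ± 2.0 in EE Sham, 12.7 ± 2.0 in SH SNA and 9.35 ± 1.9 in EE + SNA. It rose with a log2 fold change of 2.80 ± 0.32 (SE) over both housings. Gal, the galanin gene, rose by 1.09 ± 0.11 on the log2 scale, from 21.3 ± 4.2 and 21.1 ± 2.9 CPM in SH Sham and EE Sham to 51.2 ± 6.3 and 39.5 ± 5.4 CPM in SH SNA and EE + SNA. Thus Npy was higher beside a higher Npy1r, and Gal was higher beside a Galr1 that did not pass the adjusted test.

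The opioid peptide genes showed no call. Penk, the enkephalin precursor, stood at 10.9 ± 2.0 and 11.0 ± 3.3 CPM in SH Sham and EE Sham and at 10.5 ± 0.80 and 11.4 ± 0.91 CPM in their injured counterparts, a log2 difference of 0.00 ± 0.12 (adjusted p = 0.986). Pomc, the beta-endorphin precursor, had 6 to 19 reads in a sample and a log2 difference of -0.10 ± 0.28 (adjusted p = 0.844). Pdyn and Pnoc, the precursors of dynorphins and nociceptin, had 0 to 7 reads in a sample and were not tested. Of the endocannabinoid enzymes, Faah and Mgll, which degrade anandamide and 2-arachidonoylglycerol, fell by 0.26 and 0.19 on the log2 scale. In all, 9 of 11 genes of ligands and their metabolism were tested, of which 2 rose and 2 fell over both housings. Over all genes, 22.4% were called.

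Other receptors of the same families were scarce. Of Cnr2, Adra2b, Npy5r, Galr2 and Npy4r (listed as Ppyr1), only Galr2 passed the filter, with a log2 difference of 0.02 ± 0.21 (SE) after SNA (adjusted p = 0.958). The untested 4 had at most 18 reads in any sample, and Galr3 was not analysed here.

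Among 19 other Gi/o-coupled receptors, 16 were tested, of which 8 fell, 0 rose and the other 8 did not pass. Of all 16238 genes tested, 22.4% were called, 1781 lower and 1857 higher. The largest falls were of Chrm2, the M2 muscarinic receptor, with a log2 fold change of -0.95 ± 0.098 (SE), of the somatostatin receptor Sstr1 at -0.76 ± 0.24, of the metabotropic glutamate receptor Grm4 at -0.53 ± 0.090 and of Sstr2 at -0.50 ± 0.11. Chrm2 went from 20.8 ± 2.7 CPM (SD, n = 3) in SH Sham to 11.7 ± 1.2 in SH SNA, and from 21.8 ± 4.3 in EE Sham to 10.4 ± 0.82 in EE + SNA. The median log2 fold change was -0.20 over the 16, beside 0.0071 over all genes.

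Of the G protein subunits, 18 of 20 were tested, 1 rose and 5 fell, which is 6 of 18 beside 22.4% of all genes. Gnai1 and Gnao1, alpha subunits of the Gi/o class, fell by 0.27 and 0.24 on the log2 scale, Gng8 fell by 0.23, and Gng5 rose by 0.26. Gnai2 (0.05 ± 0.035, SE) and Gnai3 (0.08 ± 0.040), the other Gi alpha subunits, did not pass.

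A list of 25 genes held kinases, arrestins and RGS proteins, which end receptor signalling, and also the gene Cnrip1. RGS proteins speed up GTP hydrolysis by alpha subunits. In this list 5 genes rose and 6 fell, beside 22.4% of all genes called. Rgs20 rose with a log2 fold change of 0.77 ± 0.097 (SE) and Rgs12 with 0.32 ± 0.066, whereas Rgs6 fell by 0.61 and Rgs8 by 0.54. Of 15 listed effectors 13 were tested and 1 was called, beside 22.4% of all genes. This was Kcnj3, the GIRK1 potassium channel subunit that beta-gamma subunits open, which fell by 0.61 on the log2 scale. It stood at 24.6 ± 3.1 CPM (SD, n = 3) in SH Sham and 17.3 ± 0.60 in SH SNA, and at 26.1 ± 4.1 in EE Sham and 15.8 ± 0.93 in EE + SNA. The calcium channel genes Cacna1a (-0.07 ± 0.059, SE) and Cacna1b (0.03 ± 0.077), which carry the currents these receptors reduce, did not pass.

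**Figure D5:**
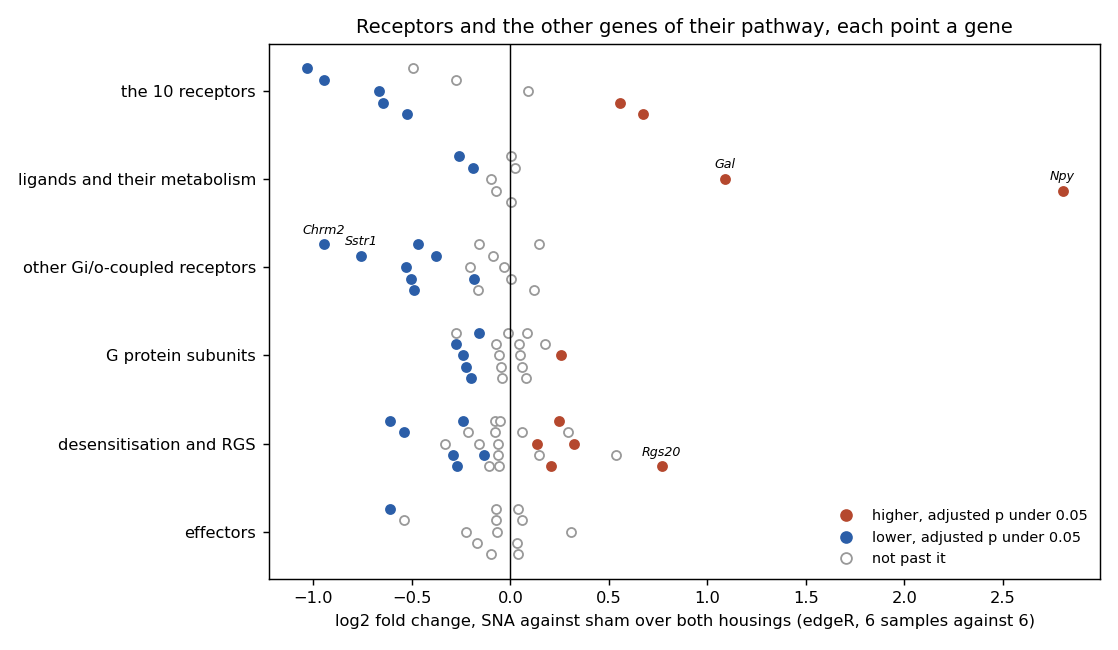
The log2 fold change with SNA over both housings (x axis, 6 samples against 6) of each tested gene, by list, with filled points for an adjusted p of 0.05 in edgeR. The 10 receptors hold 5 lower and 2 higher genes, the other Gi/o-coupled receptors 8 lower and 0 higher, and Npy lies farthest to the right at 2.80. Over all genes, 22.4% were called.

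In none of these pathway lists did a gene pass the adjusted threshold in EE Sham against SH Sham, in EE + SNA against SH SNA or in the interaction.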

How the data were processed

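The authors aligned paired reads to mm10 with TopHat2 2.0.12, sorted them with SAMtools 0.1.19 and counted them per gene with HTSeq 0.6.0 (submitters' processing notes). The deposited counts are whole numbers of reads, not normalized, and the deposited FPKM divide them by gene length and library total. In R 4.3.3, counts were filtered with filterByExpr (10 counts, total of 15), scaled by TMM and put through the two-sided quasi-likelihood test of edgeR 4.0.16, with standard errors from the F statistic. Each comparison of 2 groups used its 6 samples, and the joint fit and the interaction used 12. CPM use the reads on tested genes times the TMM factor as the library total. Scripts were tested on simulated data.

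The receptors, the pathway and marker lists and the rule for named genes (all receptors, the peptide ligands, and the up to 4 largest adjusted calls of each list after SNA over both housings) were chosen with earlier results of these data known. Genes named beyond it, such as Gnai2, Gnai3, Cacna1a and Cacna1b, were chosen after their values were seen. Loci are from GENCODE on GRCm38 and promoter windows from RefSeq on GRCm38.p6.

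Replicate numbers were checked for pairing by the correlation of deviations from group means. Between EE Sham and SH Sham same-numbered samples had r of 0.111 to 0.331, all above the limit of 0.1 set for pairing. The main fit of that comparison was unpaired all the same, and the pairing entered only as the replicate block among the alternatives. Differently numbered samples had r of -0.332 to 0.194 there. In the other comparisons the lowest r of same-numbered samples was -0.235 to 0.0573. The value of 0.0573 was that of EE + SNA against SH SNA, below the limit. Same-numbered samples there had r of 0.0573 to 0.126, all above the differently numbered ones at -0.123 to 0.0403. Alternatives were DESeq2 1.42.0, library-size scaling, the likelihood ratio test, no filter or at least 10 counts in every sample, 1 fit of all 12 samples, a replicate block, limma 3.58.1 on log2 of FPKM plus 1 or 0.1, and each sample left out in turn. P-values measure the spread between pools of 2 mice.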

Additional observations from a re-analysis of the deposited data

How the results depend on the processing

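Over both housings, 6 to 8 receptors were called after SNA under every alternative, beside 7, and in SH 5 or 6, beside 5. EE + SNA against SH Sham gave 4 to 7, beside 5. In EE, 3 were called (beside 7) with limma on log2(FPKM + 1) and 3 with limma on log2(FPKM + 0.1), where Oprl1, Cnr1 and Npy1r were the 3, and 3 to 6 when 1 sample was left out. The replicate block left 5 there, with Oprk1 at an adjusted p of 0.0567 and Adra2a at 0.0585, and changed no other adjusted call of a receptor. Without the filter Oprm1 was called lower in EE and over both housings, at an adjusted p of 0.0182 and 0.0221, and with library-size scaling Adra2c in EE missed at 0.0531. In EE, Oprk1 had no adjusted p in DESeq2 and was lost with limma, at 0.108 and 0.0973, and with any 1 of the 6 samples left out. Oprk1 was also lost over both housings with limma, at an adjusted p of 0.065 and 0.0607. The causes were not tested. No called receptor changed direction under any alternative.

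At the unadjusted threshold, EE Sham against SH Sham gave 1 receptor without the filter and 1 with the replicate block, beside 0, and 0 to 3 when 1 sample was left out. EE + SNA against SH SNA gave 1 with the likelihood ratio test, 1 with at least 10 counts in every sample, 1 with all 12 samples fitted, 1 with each limma fit, 2 without the filter and 2 with the replicate block, Oprm1 and Galr1, beside 0, and 0 to 2 when 1 sample was left out. The interaction gave 2 without the filter, beside 0, and 0 to 2 with a sample left out.

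Uncalled log2 values near 0 changed sign. For EE + SNA against SH SNA, Adra2a was 0.017 with the replicate block, 0.0027 with limma on log2(FPKM + 1) and 0.0059 on log2(FPKM + 0.1). The interaction of Oprl1 was 0.0017 with library-size scaling, 0.0040 without the filter, and 0.0041 and 0.0035 with limma. With 1 sample left out, Oprm1 after SNA in SH ran from -0.16 to 0.022 and Npy2r after SNA in EE from -0.20 to 0.043. EE Sham against SH Sham ran for Oprm1 from -0.10 to 0.17, Oprd1 from -0.087 to 0.15, Oprl1 from -0.060 to 0.050, Cnr1 from -0.11 to 0.11 and Galr1 from -0.30 to 0.077. EE + SNA against SH SNA ran for Oprd1 from -0.040 to 0.41, Oprl1 from -0.050 to 0.033, Cnr1 from -0.086 to 3.0e-06, Adra2a from -0.16 to 0.12, Adra2c from -0.30 to 0.024 and Npy1r from -0.089 to 0.10. The interaction ran for Oprd1 from -0.094 to 0.37, Oprl1 from -0.056 to 0.051, Cnr1 from -0.16 to 0.059 and Adra2c from -0.11 to 0.22.

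Over all genes, SNA in EE called 785, and 474 or 475 with limma, 1303 with the likelihood ratio test, 1278 with all 12 samples fitted, 1694 without the filter and 361 to 1082 with a sample left out. SNA in SH called 1823, and 1207 to 1683 with a sample left out, and EE + SNA against SH Sham 2031, and 1168 to 2021. EE Sham against SH Sham called 1, and 48 without the filter, 29 with the replicate block and 5 with the likelihood ratio test. EE + SNA against SH SNA and the interaction called 0, and 17 and 77 without the filter and 2 and 1 with DESeq2. The first also called 7 without SH SNA replicate 2, and the interaction 1 with the likelihood ratio test. Oprk1 and Galr1 had 10 to 49 reads a sample, and their CV between samples reached 33.0% and 41.5%, where counting error alone gives 17.7% and 21.8%.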
